A study of Homo sapiens with 8 samples.

Results

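The effect of an ISL1 vector was examined in islet-stage cells that carry a PDX1 knockout. The 2 libraries labelled PDX1 KO with ISL1 overexpression (PDX1 KO ISL1 OE, replicates 2 and 4) were set against the 3 libraries of PDX1 KO cells with the control vector (PDX1 KO BFP, replicates 1, 2 and 3), which makes 5 of the 21 RNA-seq libraries of the series. All cells derived from the established human embryonic stem cell line H1 and were taken through an islet differentiation. They received their vector on day 11, either ISL1 joined through an IRES to blue fluorescent protein (BFP) or BFP alone, and were collected on day 18. PDX1 KO cells carried a PDX1 knockout under both vectors. Wild-type (WT) cells with the ISL1 vector (replicates 1 and 2) and with BFP (replicates 1 and 3) are given beside them, and ISL1 KO and PAX6 KO cells with either vector (3 libraries in each of those 4 groups) enter the fit and the last comparisons. The kind of PDX1 edit, the number of clones and the promoter of the vector are not given in the sources used here. The series calls the replicates biological, with no word on what separates them, so p-values measure the spread between these libraries. Because the 2 PDX1 KO ISL1 OE libraries differ strongly from each other, each was compared with the controls on its own, and the account centres on genes at which both lay above, or both below, all 3 PDX1 KO BFP libraries.

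As background, ISL1 is a LIM-homeodomain transcription factor that acts with LIM-domain binding cofactors and is present in all endocrine cells of the pancreas, where it is needed for their maturation and survival. PDX1 is a homeodomain factor that the early pancreas needs in order to form and that beta cells need for insulin transcription. Islet differentiations of stem cells also yield serotonin-making cells that resemble enterochromaffin cells of the gut, and endocrine cells in which the balance of hormones shifts when one of these factors is lost.

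The stretch just before the transcription start is shown for 6 genes with large gaps between the groups, 4 with both PDX1 KO ISL1 OE libraries above the controls and 2 with both below. They carry the pattern described here and differ in base composition. Sequences are from RefSeq (GRCh38.p14), 5′ to 3′ on the gene's strand, with bases inside the gene's own GENCODE 29 span left out. The start used is that of RefSeq. For NKX6-1 it lies upstream of the start in GENCODE 29, so the stretch does not adjoin the gene coordinates given further below. Capitals mark TAAT on either strand (ATTA on the other), the core read by many homeodomain proteins, and overlapping matches were counted. MS4A8, a membrane protein of the MS4A family, is at chr11:60699362-60699573 (plus strand). SPP1 encodes osteopontin, a marker of pancreatic duct, and its stretch is chr4:87975464-87975649 (plus strand). AGR3, a disulfide isomerase relative of secretory epithelia, is at chr7:16881988-16882233 (minus strand), and HHEX, the homeobox factor of delta cells, at chr10:92689705-92689950 (plus strand). On the lowered side are NKX6-1, a homeobox factor of beta cells and their progenitors, at chr4:84499293-84499542 (minus strand), and IL22RA1, a subunit of the interleukin-22 receptor, at chr1:24143141-24143390 (minus strand).
MS4A8: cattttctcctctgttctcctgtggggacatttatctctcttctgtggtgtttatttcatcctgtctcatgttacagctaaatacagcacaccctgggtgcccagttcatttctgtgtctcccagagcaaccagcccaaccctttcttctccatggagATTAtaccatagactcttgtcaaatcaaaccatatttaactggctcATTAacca
SPP1: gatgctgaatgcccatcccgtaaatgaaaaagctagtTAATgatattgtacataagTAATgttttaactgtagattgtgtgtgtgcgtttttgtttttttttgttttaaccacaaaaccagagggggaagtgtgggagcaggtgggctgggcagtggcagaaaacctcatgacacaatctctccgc
AGR3: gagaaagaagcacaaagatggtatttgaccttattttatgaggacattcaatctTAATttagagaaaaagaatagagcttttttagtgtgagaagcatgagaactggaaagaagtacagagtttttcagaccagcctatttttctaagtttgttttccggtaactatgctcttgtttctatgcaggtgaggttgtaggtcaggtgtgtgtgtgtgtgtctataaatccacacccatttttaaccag
HHEX: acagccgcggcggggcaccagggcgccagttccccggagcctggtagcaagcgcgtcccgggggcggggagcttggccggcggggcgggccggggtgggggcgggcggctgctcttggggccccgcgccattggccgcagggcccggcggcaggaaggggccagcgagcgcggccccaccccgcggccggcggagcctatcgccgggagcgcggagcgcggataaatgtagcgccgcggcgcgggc
NKX6-1: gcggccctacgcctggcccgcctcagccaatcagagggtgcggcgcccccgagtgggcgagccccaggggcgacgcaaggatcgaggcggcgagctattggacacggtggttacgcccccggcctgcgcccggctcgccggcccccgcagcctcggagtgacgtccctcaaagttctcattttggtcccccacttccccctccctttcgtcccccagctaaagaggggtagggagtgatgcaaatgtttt
IL22RA1: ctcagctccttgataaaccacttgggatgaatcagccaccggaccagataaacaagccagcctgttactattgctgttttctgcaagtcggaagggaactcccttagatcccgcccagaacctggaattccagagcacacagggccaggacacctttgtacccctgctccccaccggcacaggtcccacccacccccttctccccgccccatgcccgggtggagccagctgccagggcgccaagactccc
MS4A8 and SPP1 held 2 matches each and AGR3 held 1, while HHEX, NKX6-1 and IL22RA1 held 0 in these windows. Of 4 further genes with large gaps whose stretches are not printed, RARRES2, above the controls, held 0, and BRINP3-DT, PALM2AKAP2 and SLC17A8, below them, held 5, 1 and 0. The printed sequences therefore do not stand for a share in either direction. GC content was 43.4% in MS4A8, 41.9% in SPP1 and 36.6% in AGR3, against 81.3% in HHEX, 67.6% in NKX6-1 and 60% in IL22RA1. Over the 250 bases before the start, TAAT occurred in 145 of the 294 promoters (49.3%) of genes with both libraries above the controls by a gap of at least 1 on the log2 scale. It occurred in 99 of 225 promoters (44%) of genes below by that gap and in 5262 of 14687 promoters (35.8%) of all genes tested, and in 16660 of the 35116 promoters (47.4%) of the whole table, tested or not. Median GC content ran the other way among the tested genes, at 55.6% above, 60% below and 64.0% over all genes tested. The median log2 CPM was -0.04 above, 2.07 below and 3.21 over all genes tested. The part of base composition and of expression level in the motif shares was not tested. A match is a description of the letters and not a binding site.

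The 5 libraries held between 51161443 and 64652297 estimated counts, with 61462660 in PDX1 KO ISL1 OE replicate 2 and 55325639 in replicate 4. Pearson correlation over the log2 counts scaled to library size (CPM) of all genes tested was 0.967 to 0.972 between replicate 2 and the PDX1 KO BFP libraries, and 0.955 to 0.965 with the WT libraries. For replicate 4 it was 0.891 to 0.907 with PDX1 KO BFP and 0.924 to 0.941 with WT, so that replicate 4, a library labelled PDX1 KO ISL1 OE, stood closer to WT than to the controls of its own genotype. With PAX6 KO ISL1 OE replicate 3 it reached 0.943. Over the 2000 most variable genes replicate 4 had 0.654 with that library and 0.821 to 0.882 with WT. PDX1 KO ISL1 OE replicates 2 and 4 correlated at 0.9 with each other over all genes, against 0.985 to 0.987 between PDX1 KO BFP libraries. Replicate 4 also had a TMM scaling factor of 0.707, against 1.02 in replicate 2 and 0.978 to 0.983 in PDX1 KO BFP, and mitochondrially encoded RNA made up 1.68% of its counts, against 0.713% in replicate 2 and 0.639 to 0.875% in PDX1 KO BFP. Its counts were led by GCG at 6.69%, whereas CHGA led replicate 2 with 2.2% and the PDX1 KO BFP libraries with 3.79 to 4.12%. The part these library differences play in the results was not tested, and values without replicate 4 are given beside many, but not all, of the results that rest on it. In bulk RNA, fewer cells of a type and less RNA per cell cannot be told apart.

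ISL1 RNA itself stood at 127 and 278 CPM in PDX1 KO ISL1 OE replicates 2 and 4, against 140, 157 and 123 CPM in PDX1 KO BFP. Replicate 2 lay inside the control range and replicate 4 above it, and the groups overlapped. The fitted log2 fold change was 0.54 ± 0.38 (SE; edgeR's quasi-likelihood test, Benjamini-Hochberg adjusted p = 0.342) and came to -0.10 without replicate 4. ISL1 reached 326 and 313 CPM in WT ISL1 OE and 285 and 484 CPM in WT BFP, so a raised ISL1 RNA was not detectable in these counts under the ISL1 vector in either genotype. The sources used here do not state whether the counting covered transcripts of the vector. PDX1 RNA was present in all PDX1 KO libraries, with 126.1 and 71.6 CPM in PDX1 KO ISL1 OE and 93.1, 105 and 104 CPM in PDX1 KO BFP, against 74 to 95.1 CPM in the 4 WT libraries. An edit that spares the transcript's level leaves no mark on this measure, so it does not check the genotype labels. PAX6, the paired-box factor of islet endocrine cells, had 82.7 and 189 CPM in PDX1 KO ISL1 OE against 98.7 to 120.8 CPM in PDX1 KO BFP (adjusted p = 0.661).

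Of 22207 genes tested, 3739 (16.8%) had both PDX1 KO ISL1 OE libraries above all PDX1 KO BFP libraries and 4125 (18.6%) had both below, on the CPM after TMM scaling. On the authors' deposited TPM the same counts were 1975 above and 5240 below, so the share of higher genes depends on the scale. A gap of at least 1 on the log2 scale between the nearest libraries of the groups was met by 464 genes above (2.09%) and 348 below (1.57%). At that limit, LITAF lay just inside with a gap of 1.001 on the upper side and NDRG4 with 1.005 on the lower side, and SERPINF1 and COL5A2 lay just outside, each short of 1 by less than 0.001. Replicate 2 alone lay above the control range at 7639 genes (34.4%) and below it at 7824 (35.2%). Replicate 4 alone lay above at 9409 (42.4%) and below at 9760 (44%). The libraries went opposite ways at 2869 genes with replicate 2 above and replicate 4 below (12.9%) and at 2986 genes with the reverse (13.4%). With so few libraries, genes that the vector does not change also meet each of these rules through the order of the libraries alone. The counts are therefore not numbers of genes changed by the vector, and that part was not tested.

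**Figure D1:**
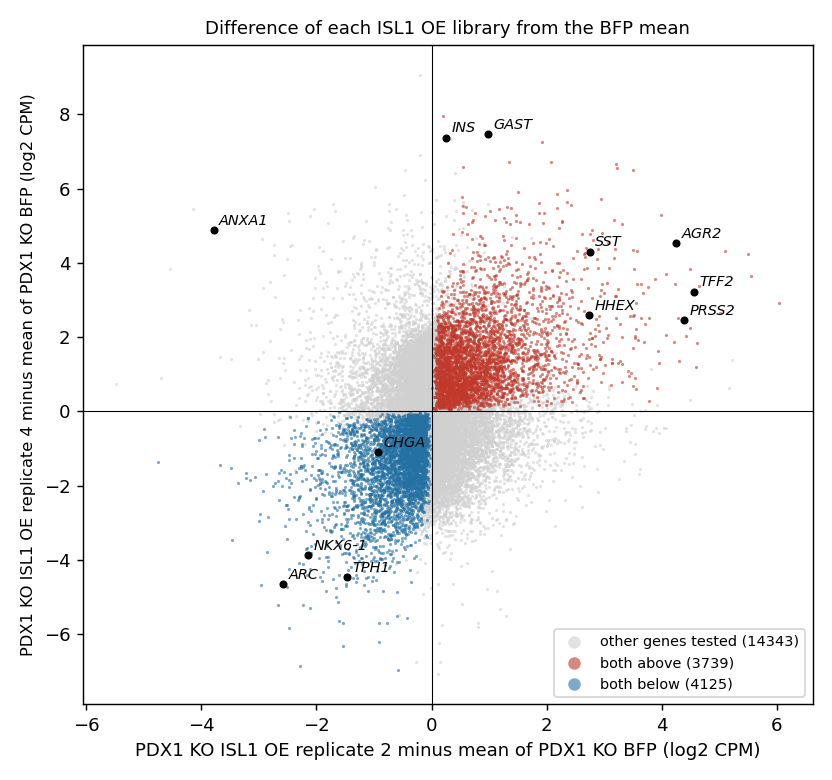
Each point is 1 of the 22207 genes tested. The x axis gives PDX1 KO ISL1 OE replicate 2 minus the mean of the 3 PDX1 KO BFP libraries and the y axis the same for replicate 4, both in log2 CPM; red marks the 3739 genes with both libraries above all controls and blue the 4125 with both below. AGR2, TFF2 and HHEX lie far from 0 on both axes, INS and GAST lie high on the y axis and much nearer 0 on the x axis, and ANXA1 lies on opposite sides.

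In the fit over all 21 libraries, 3200 genes (14.4%) were called at an adjusted p under 0.05 by edgeR's quasi-likelihood test, 2015 higher (9.07%) and 1185 lower (5.34%) in PDX1 KO ISL1 OE. Of the higher calls, 1610 also had both libraries above the controls (7.25% of all genes) and 405 overlapped with them (1.82%). Of the lower calls, 1184 had both libraries below (5.33%) and 1 overlapped (0.0045%). The count of calls fell to 718 without replicate 4 and grew to 10860 without replicate 2. It was 1834, 1587 and 1281 without PDX1 KO BFP replicate 1, 2 and 3 in turn. With limma-voom and sample quality weights, which gave these libraries weights of 0.0842 and 0.0786, 10 genes were called and 1447 had an unadjusted p under 0.05. All 10 had a limma-voom adjusted p of 0.049, just under the threshold of 0.05. A fit on the 5 PDX1 KO libraries alone called 0 genes, with 3016 at an unadjusted p under 0.05. With 1 of the 2 PDX1 KO ISL1 OE libraries left out, the other is assumed to vary like the libraries of the other groups, whose spread the fit pools. PAX6 KO ISL1 OE replicate 3, which stood apart from its group mates, is part of that spread. In a setting chosen after seeing the data, leaving it out together with replicate 4 gave 2570 calls in place of 718, and 1309 of the 3200 calls kept their direction (40.9%) in place of 552 (17.2%). A call lost without replicate 4 therefore need not mean a smaller fold change. The named genes below were chosen from the same libraries that gave their fold changes, so their values describe the comparison and are no independent support for it.

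Of the 15 genes with the largest gaps above the controls, all were called higher, 14 also without replicate 4, and 5 by limma-voom. AGR2, a protein disulfide isomerase that folds mucins in the endoplasmic reticulum (chr7:16791811-16833433), had 739 and 896 CPM in PDX1 KO ISL1 OE against 39.5, 36.5 and 40.3 CPM in PDX1 KO BFP. Both libraries were far above the controls, at 19.1 and 23.1 times their mean, and the log2 fold change was 4.4 ± 0.63 (SE; edgeR adjusted p = 0.000546). WT cells also had more AGR2 than the PDX1 KO controls, with 397 and 573 CPM in WT ISL1 OE and 239 and 92.6 CPM in WT BFP. AGR3, whose upstream stretch is shown above and whose gene lies beside AGR2 (chr7:16859405-16881987), had 68.6 and 78.2 CPM in PDX1 KO ISL1 OE against 7.49, 7.22 and 11.6 CPM in PDX1 KO BFP, a log2 fold change of 3.07 ± 0.32 (edgeR adjusted p = 6.9e-05). TFF2, a trefoil peptide of the stomach's mucous cells (chr21:42346357-42351128), had 46.1 and 18.2 CPM against 1.89, 1.68 and 2.24 CPM in PDX1 KO BFP. Its log2 fold change was 4.05 ± 0.43 (edgeR adjusted p = 6.9e-05), and replicate 2 was the higher library. SPP1 had 30.2 and 70.6 CPM in PDX1 KO ISL1 OE against 4.39, 3.29 and 4.68 CPM in PDX1 KO BFP, 7.34 and 17.1 times the control mean (log2 fold change 3.61 ± 0.34, edgeR adjusted p = 3.19e-05).

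Secreted proteins, a homeobox factor and enzymes were also in this set. FRZB, a secreted antagonist of Wnt ligands, had 249 and 158 CPM in PDX1 KO ISL1 OE against 20.3, 7.16 and 9.42 CPM in PDX1 KO BFP, a log2 fold change of 4.05 ± 0.46 (edgeR adjusted p = 8.4e-05). HHEX had 33.2 and 30.1 CPM in PDX1 KO ISL1 OE against 5.98, 6.12 and 3.34 CPM in PDX1 KO BFP (log2 fold change 2.62 ± 0.31, edgeR adjusted p = 0.000119). The 2 libraries nearly coincided for HHEX and did not reach the 79.9 and 96.8 CPM of WT ISL1 OE, while WT BFP had 24.2 and 26 CPM. RARRES2, which encodes the secreted attractant chemerin, had 55.2 and 62 CPM against 6.59, 8.56 and 6.60 CPM in PDX1 KO BFP. IGFBP7, a secreted protein that binds insulin-like growth factors, had 71.7 and 215 CPM in PDX1 KO ISL1 OE against 14.2, 8.69 and 12 CPM in PDX1 KO BFP. Of the metabolic enzymes in the set, TDO2, which opens the ring of tryptophan, had 66.6 and 261 CPM against 13.4, 5.34 and 5.52 CPM in PDX1 KO BFP. The sulfotransferases SULT1C2 and SULT1B1 were at 7.75 and 9.70 times, and at 11.6 and 7.49 times, the control mean in replicates 2 and 4. SULT1B1 was the 1 gene of the 15 that lost its call without replicate 4 (edgeR adjusted p = 0.0237 with it and 0.0689 without it). UBD, a ubiquitin-like modifier, MS4A8, LYPD6B and the transcript SMANTIS complete the set, each between 8.4 and 23.2 times the control mean in either library.

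**Figure D2:**
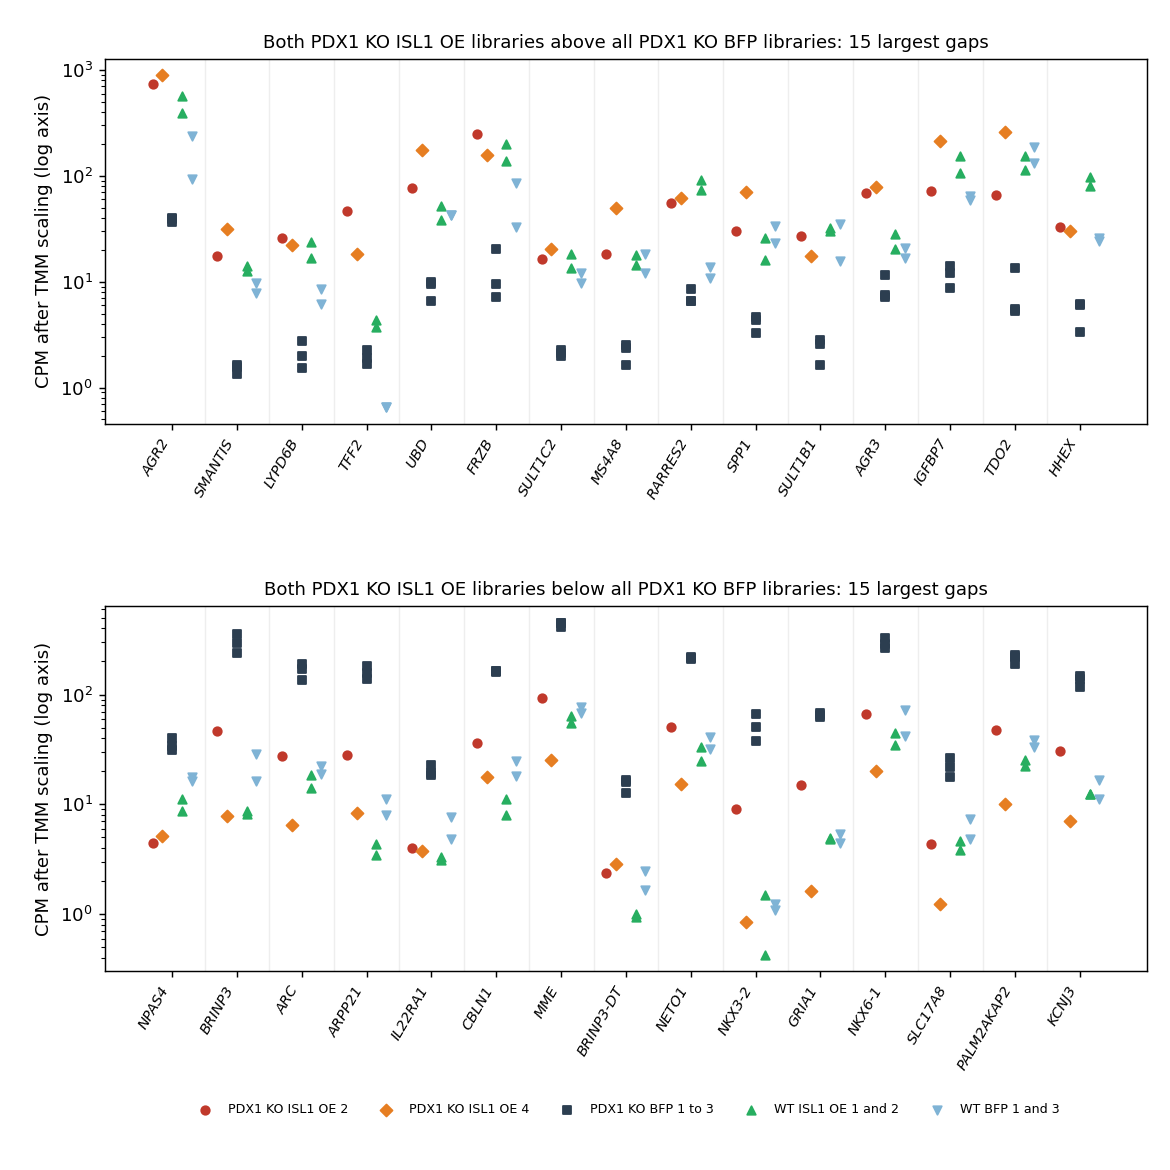
CPM after TMM scaling on a log axis for the 15 genes with the largest gap in each direction, among genes with a mean log2 CPM of at least 2. Red circles and orange diamonds are PDX1 KO ISL1 OE replicates 2 and 4, dark squares the 3 PDX1 KO BFP libraries, green and blue triangles the WT ISL1 OE and WT BFP libraries. Both ISL1 OE libraries clear the squares at every gene, and the WT triangles mostly lie on the same side of the squares as they do.

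At 837 genes (3.77%) both PDX1 KO ISL1 OE libraries exceeded the WT libraries as well as the PDX1 KO BFP libraries, and at 1000 genes (4.5%) both lay below all of them. The largest such gap above belonged to TFF2, with WT at 0.655 to 4.30 CPM. The trypsinogens PRSS2 and PRSS1, digestive proenzymes of acinar cells, were among the 8 genes with the largest such gaps, as was AGR3. PRSS2 had 897 and 234 CPM in PDX1 KO ISL1 OE, 31.1, 36.5 and 68.9 CPM in PDX1 KO BFP and 11.1 to 59.7 CPM in WT (log2 fold change 3.64 ± 0.62, edgeR adjusted p = 0.00172). PRSS1 had 237 and 99 CPM in PDX1 KO ISL1 OE and 13.7, 15.9 and 23.4 CPM in PDX1 KO BFP, and since the 2 genes are near-identical copies the split between them is uncertain. TFF1, a second trefoil peptide, had 52.1 and 41.8 CPM against 9.72, 12.9 and 11.4 CPM in PDX1 KO BFP and 2.39 to 10.9 CPM in WT. POMC, the precursor of several pituitary peptide hormones, had 27 and 35.2 CPM in PDX1 KO ISL1 OE against 6.88, 5.23 and 7.38 CPM in PDX1 KO BFP and 8.33 to 10.5 CPM in WT. Its log2 fold change was 2.26 ± 0.27 (edgeR adjusted p = 0.000119). NMB, the peptide neuromedin B, and CFAP276, a cilium-associated protein, rose by smaller steps of 1.54 ± 0.41 and 1.44 ± 0.39 on the log2 scale, and neither kept its call without replicate 4 (edgeR adjusted p = 0.151 for NMB and 0.169 for CFAP276), at values of 1.40 and 1.32. All 8 genes of this set were called without replicate 4 when PAX6 KO ISL1 OE replicate 3 was left out too.

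On the lower side beyond WT, the activity-dependent transcription factor NPAS4 had 4.41 and 5.12 CPM in PDX1 KO ISL1 OE, 33.9, 31 and 40.5 CPM in PDX1 KO BFP and 8.63 to 17.8 CPM in WT. The groups did not overlap, yet its log2 fold change of -2.88 had an SE of 1.3 and did not pass (edgeR adjusted p = 0.139). EDNRA, the endothelin A receptor, had 24 and 23.3 CPM in PDX1 KO ISL1 OE, 61.2, 61 and 62.6 CPM in PDX1 KO BFP and 41.1 to 74.1 CPM in WT (log2 fold change -1.38 ± 0.32, edgeR adjusted p = 0.0104). GATA2, a zinc-finger factor of blood and neural lineages, had 2.12 and 2.15 CPM against 14.3, 6.55 and 5.88 CPM in PDX1 KO BFP. SERTM2, THSD7A, C1orf216, NEBL and SLC1A4 fell by between 1.16 and 1.95 on the log2 scale. Of the 8 genes named on this side, 7 were called with both libraries and 1, C1orf216, without replicate 4 (edgeR adjusted p = 0.0168), where the others had adjusted p from 0.0988 to 0.498. Their median log2 fold change was -1.46 with both libraries and -1.25 without replicate 4, and 7 of the 8 were called without replicate 4 once PAX6 KO ISL1 OE replicate 3 was left out as well.

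Of the 15 genes with the largest gaps below the PDX1 KO BFP libraries, 14 were called lower, 11 without replicate 4 and 0 by limma-voom. NKX6-1 (chr4:84491987-84498450) had 66.5 and 20 CPM in PDX1 KO ISL1 OE against 288, 267 and 328 CPM in PDX1 KO BFP, and 34.7 to 73 CPM in WT. It fell by 2.77 ± 0.42 on the log2 scale (edgeR adjusted p = 0.000852, and 0.00377 without replicate 4). CBLN1, a secreted organiser of synapses, had 36.1 and 17.6 CPM against 161, 165 and 164 CPM in PDX1 KO BFP (log2 fold change -2.6 ± 0.34, edgeR adjusted p = 0.000286). Replicate 4 was the lower of the 2 libraries at both genes, as it was at most of the 15. BRINP3 had 46.3 and 7.83 CPM in PDX1 KO ISL1 OE against 238, 294 and 359 CPM in PDX1 KO BFP, the largest fall among the 15 at -3.45 ± 0.58 on the log2 scale (edgeR adjusted p = 0.00157). Its divergent transcript BRINP3-DT lies beside it, and reads of overlapping or antisense transcripts cannot be told apart in an unstranded library. MME, the peptidase neprilysin, had 92.5 and 25.2 CPM in PDX1 KO ISL1 OE against 448, 451 and 411 CPM in PDX1 KO BFP (log2 fold change -2.89 ± 0.5, edgeR adjusted p = 0.00201). ARPP21, a phosphoprotein of dopamine-receptive neurons, was at 0.179 and 0.0522 times the control mean.

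Several channels, receptors and transporters of excitable cells were in that set. NETO1, an auxiliary subunit of kainate receptors, had 50.5 and 15.3 CPM in PDX1 KO ISL1 OE against 214, 212 and 219 CPM in PDX1 KO BFP (log2 fold change -2.71 ± 0.37, edgeR adjusted p = 0.000395). KCNJ3, a G-protein-gated potassium channel, had 30.8 and 7.09 CPM against 116.9, 139 and 148 CPM in PDX1 KO BFP (log2 fold change -2.83 ± 0.46, edgeR adjusted p = 0.00125). GRIA1, an AMPA receptor subunit, had 15 and 1.61 CPM in PDX1 KO ISL1 OE and 64.7, 62.5 and 67.5 CPM in PDX1 KO BFP. At all 3 the control libraries lay close together, and replicate 4 was the lower of the 2 libraries below them. SLC17A8, a vesicular glutamate transporter, the immediate early gene ARC and GRIA1 lost their calls without replicate 4, with edgeR adjusted p of 0.0521, 0.121 and 0.116 and log2 fold changes of -2.29, -2.56 and -2.08. Leaving out PAX6 KO ISL1 OE replicate 3 as well gave 14 calls among the 15 genes. IL22RA1 was even across the 2 libraries, with 3.98 and 3.79 CPM in PDX1 KO ISL1 OE against 18.6, 22.6 and 19.1 CPM in PDX1 KO BFP (log2 fold change -2.37 ± 0.32, edgeR adjusted p = 0.000324). NKX3-2, a homeobox factor, and PALM2AKAP2, a kinase anchoring protein whose locus overlaps other transcripts, were called lower as well.

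Serotonin-related and enterochromaffin-like genes were lower as a group. Of the 12 genes in the list, 10 had both libraries below the controls (18.6% of all genes) and 1 had both above (16.8%). In the edgeR fit 7 fell and 0 rose (5.34% and 9.07% of all genes), while DESeq2 called 8 lower and 1 higher. The median log2 fold change of the 12 was -1.24, against 0.07 over all genes tested, with medians of -1.32 in replicate 2 and -1.95 in replicate 4. TPH1, the rate-limiting enzyme of serotonin synthesis, had 161 and 20.2 CPM in PDX1 KO ISL1 OE against 381, 484 and 481 CPM in PDX1 KO BFP, and 23.6 to 57.1 CPM in WT. It fell by 2.31 ± 0.57 on the log2 scale (edgeR adjusted p = 0.015, and 0.0585 without replicate 4). DDC, which makes serotonin and dopamine from their precursors, had 253 and 350 CPM in PDX1 KO ISL1 OE against 763, 829 and 745 CPM in PDX1 KO BFP. SLC18A1, the transporter that loads monoamines into granules, had 137 and 22.6 CPM against 340, 348 and 358 CPM in PDX1 KO BFP. LMX1A, a LIM-homeodomain factor like ISL1, had 147 and 28.1 CPM in PDX1 KO ISL1 OE against 521, 543 and 467 CPM in PDX1 KO BFP (log2 fold change -2.55 ± 0.49, edgeR adjusted p = 0.00366). CBLN1, ADRA2A and GCH1 fell too, and FEV, SLC18A2 and CHGA lay below the controls in both libraries without passing. CHGA, the granule protein chromogranin A, had 21500 and 19200 CPM in PDX1 KO ISL1 OE against 41700, 41900 and 38700 CPM in PDX1 KO BFP (edgeR adjusted p = 0.0576). Without replicate 4, DDC, CBLN1 and LMX1A were still called lower.

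**Figure D3:**
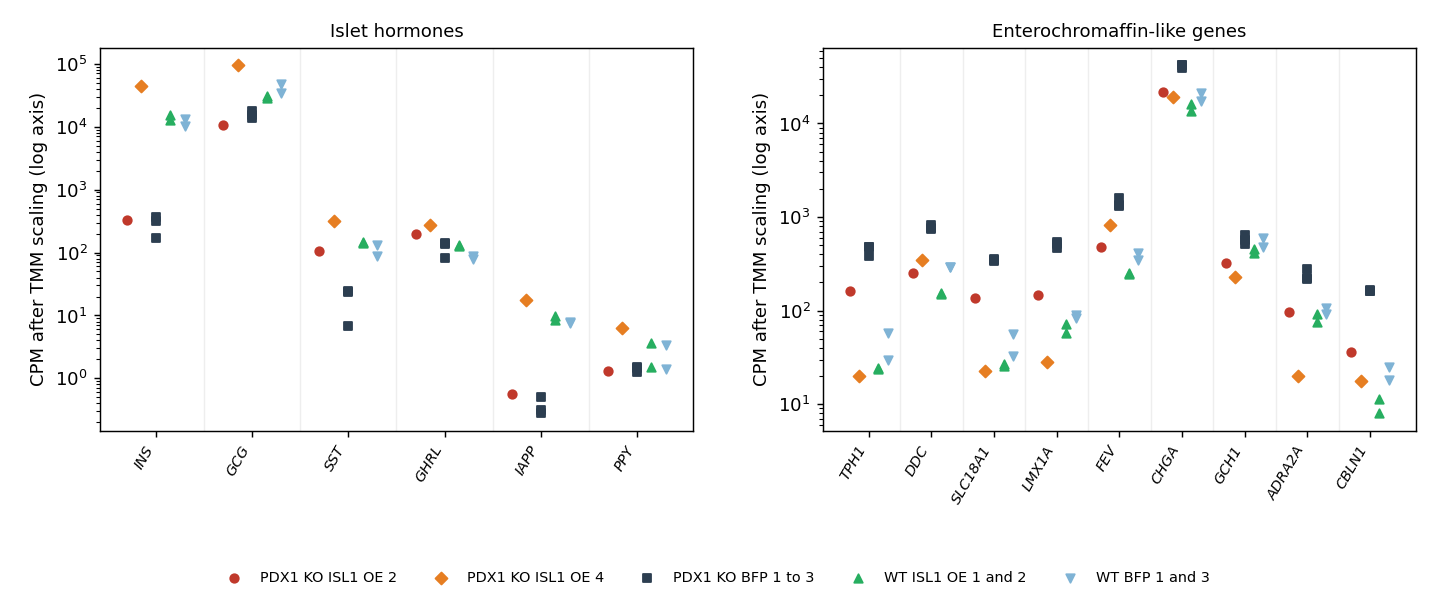
CPM after TMM scaling on a log axis for 6 islet hormones (left) and 9 enterochromaffin-like genes (right), 1 symbol per library, ordered in each column as PDX1 KO ISL1 OE replicate 2 and replicate 4, PDX1 KO BFP, WT ISL1 OE and WT BFP. INS, GCG and IAPP are high in replicate 4 and near the controls in replicate 2, whereas at each of the 9 genes on the right both replicates lie below the PDX1 KO BFP squares. The 9 are part of the enterochromaffin-like list of 12, in which 10 genes had both replicates below and 1 had both above.

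The hormone genes separated the 2 libraries. INS had 324 and 44900 CPM in PDX1 KO ISL1 OE replicates 2 and 4, against 371, 314 and 173 CPM in PDX1 KO BFP and 10400 to 15200 CPM in WT. Replicate 2 lay inside the range of the controls and replicate 4 above every WT library. The fitted log2 fold change of 6.3 ± 1.09 (edgeR adjusted p = 0.00202) came to 0.21 without replicate 4 (adjusted p = 0.915). GCG, the glucagon gene, had 10800 and 94700 CPM in PDX1 KO ISL1 OE against 13800, 17800 and 15300 CPM in PDX1 KO BFP (edgeR adjusted p = 0.187). IAPP, amylin, had 0.557 and 17.6 CPM against 0.312, 0.504 and 0.280 CPM in PDX1 KO BFP. SST was the hormone raised in both libraries by a wide gap, with 107 and 312 CPM in PDX1 KO ISL1 OE, 24.6, 24 and 6.74 CPM in PDX1 KO BFP and 87.9 to 145 CPM in WT. Its log2 fold change of 3.51 ± 0.85 was called with both libraries (edgeR adjusted p = 0.0134) and not without replicate 4 (adjusted p = 0.169). GHRL, the ghrelin gene, had 195 and 279 CPM in PDX1 KO ISL1 OE against 138, 141 and 82.8 CPM in PDX1 KO BFP and 77.6 to 134 CPM in WT, and did not pass (edgeR adjusted p = 0.247). PPY had 1.31 and 6.37 CPM against 1.5, 1.45 and 1.26 CPM in PDX1 KO BFP.

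Of the 7 hormone genes listed, 4 (INS, SST, IAPP and PYY) rose in the fit with replicate 4 and 0 without it, where 1 had an unadjusted p under 0.05 by edgeR. Their summed level was 11480 and 140500 CPM in PDX1 KO ISL1 OE against 14320 to 18320 CPM in PDX1 KO BFP and 41740 to 58980 CPM in WT. Among 12 delta cell genes, 5 had both libraries above the controls and 5 rose, among them SST, FRZB and HHEX, while 1 fell (3 rose and 0 fell without replicate 4). The median log2 fold change of the delta cell genes was 1.28, and 0.9 without replicate 4. Among all genes tested, 16.8% had both libraries above the controls and 18.6% both below, 9.07% rose and 5.34% fell. Both libraries lay below the controls at 2 of the 12 delta cell genes. For the 28 beta cell genes listed, both lay above at 6 and below at 8. For the 20 alpha cell genes listed, both lay above at 7 and below at 5. RBP4, the plasma carrier of retinol, had 78.2 and 876 CPM in PDX1 KO ISL1 OE against 29.1, 17.3 and 19.4 CPM in PDX1 KO BFP (edgeR adjusted p = 0.00132, and 0.0792 without replicate 4). Of 28 beta cell genes, 11 rose and 5 fell, with medians of -0.05 in replicate 2 and 0.74 in replicate 4, and 1 rose and 1 fell without replicate 4. SLC2A2, the glucose transporter GLUT2, had 13.6 and 11.6 CPM in PDX1 KO ISL1 OE against 3.78, 1.72 and 1.64 CPM in PDX1 KO BFP and was the riser that stayed (edgeR adjusted p = 0.0217 without replicate 4). MAFA, a late factor of beta cells, stood at 2.39 and 0.154 CPM against 4.61, 2.71 and 4.28 CPM in PDX1 KO BFP (edgeR adjusted p = 0.142). Of 20 alpha cell genes, 5 rose and 1 fell (1 and 0 without replicate 4).

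Islet transcription factors and the secretory apparatus held more genes below the controls in both libraries than above them. The shares over all genes tested were 18.6% below and 16.8% above, with 5.34% called lower and 9.07% called higher. Of 30 islet factors, 11 had both libraries below the controls, 3 had both above, 6 fell and 1 rose, and the median log2 fold change was -0.30. INSM1, a zinc-finger factor of endocrine differentiation, had 1170 and 226 CPM in PDX1 KO ISL1 OE against 2620, 2700 and 2840 CPM in PDX1 KO BFP (log2 fold change -1.96 ± 0.45, edgeR adjusted p = 0.00995). MYT1, another endocrine zinc-finger factor, had 8.04 and 4.81 CPM against 26.1, 21.2 and 21.7 CPM in PDX1 KO BFP. MNX1, a homeobox factor of beta cells, and NKX2-2, a homeobox factor of several islet cell types, fell as well, NKX2-2 with 47 and 29.5 CPM in PDX1 KO ISL1 OE against 96.5, 98.6 and 110 CPM in PDX1 KO BFP. The single riser was ONECUT1, a cut-homeobox factor of pancreatic progenitors and liver, with 36 and 15.5 CPM in PDX1 KO ISL1 OE against 5.32, 7.16 and 6.32 CPM in PDX1 KO BFP (log2 fold change 2.04 ± 0.34, edgeR adjusted p = 0.00145). NEUROG3, the trigger of endocrine commitment, had 163 and 131 CPM against 124.5, 114 and 67.4 CPM in PDX1 KO BFP (adjusted p = 0.278), and NEUROD1 had 410 and 989 CPM against 798, 939 and 820 CPM (adjusted p = 0.66). Without replicate 4, 3 of the 30 islet factors were called lower and 1 higher. Of 17 LIM homeobox genes and cofactors of ISL1, 4 rose and 2 fell, with both libraries above the controls at 3 and below at 5. Without PDX1 KO BFP replicate 1, 2 and 3 in turn, 1, 2 and 1 of the 17 rose and 1, 2 and 1 fell. The median log2 fold change of the 17 was 0.13, against -0.11 under library size alone and 0.07 without replicate 4.

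Of 27 genes of the secretory granule and prohormone processing, 19 had both libraries below the controls and 0 had both above, and 10 fell while 0 rose. Their median log2 fold change was -0.88, and the 2 libraries were alike at -0.85 and -1.01. For comparison, 18.6% of all genes tested had both libraries below and 16.8% both above, 5.34% fell and 9.07% rose. PCSK1, a convertase of proinsulin and other prohormones, had 123 and 16.4 CPM in PDX1 KO ISL1 OE against 285, 262 and 303 CPM in PDX1 KO BFP (edgeR adjusted p = 0.0253, and 0.152 without replicate 4). SYT13, a synaptotagmin of endocrine cells, had 79.4 and 50.6 CPM against 256, 234 and 212 CPM in PDX1 KO BFP and 43.6 to 51.4 CPM in WT. It fell by 1.85 ± 0.22 on the log2 scale (edgeR adjusted p = 0.000125, and 0.00115 without replicate 4). Members that did not follow were SCG5, with 388 and 2950 CPM against 467, 609 and 499 CPM in PDX1 KO BFP, and PAM, with 415 and 38.8 CPM against 156, 147 and 194 CPM. Of 18 ion channels coupled to exocytosis, 10 had both libraries below and 4 fell while 1 rose. Of 21 neuronal genes, 9 had both libraries below and 5 fell, DCX among them with 48.4 and 32.7 CPM in PDX1 KO ISL1 OE against 90.5, 91.4 and 92.2 CPM in PDX1 KO BFP. Without replicate 4, the called falls were 2 of the 27 granule genes, SYT13 among them, 0 of the 18 channels and 0 of the 21 neuronal genes, with 13, 6 and 6 genes of these lists at an unadjusted p under 0.05 by edgeR. The medians were nearly as before, at -0.84 for granule genes, -0.58 for channels and -0.59 for neuronal genes, against -0.88, -0.49 and -0.58 with both libraries. With PAX6 KO ISL1 OE replicate 3 also left out, 11, 4 and 5 were called lower, and 2 granule genes were called higher. Of 16 endocrine progenitor genes, 7 had both libraries below and 3 had both above, and 4 fell while 0 rose. DLL4, a Notch ligand, was among those that fell, with 54.3 and 13.2 CPM against 140, 134 and 123.5 CPM in PDX1 KO BFP. The median log2 fold change of the 16 was -0.25, and -0.38 without replicate 4.

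The lists of neighbouring endodermal tissues held more genes above the controls in both libraries than below them. Shares over all genes tested were 16.8% above and 18.6% below, with 9.07% called higher and 5.34% called lower. Of 17 genes of pancreatic progenitors and duct, 7 had both libraries above the controls and 0 had both below, and 8 rose while 0 fell (5 and 0 without replicate 4). The median log2 fold change was 1.32. HES1, the Notch-responsive repressor, had 107 and 222 CPM in PDX1 KO ISL1 OE against 47.2, 47.6 and 51.3 CPM in PDX1 KO BFP, and KRT19, a keratin of ducts, had 925 and 2470 CPM against 549, 482 and 467 CPM. SOX9, the progenitor and duct factor, split the libraries with 166 and 15.9 CPM against 44.3, 45.9 and 61.9 CPM in PDX1 KO BFP. Of the 14 acinar genes, 9 passed the filter on low counts, 4 of those had both libraries above and 4 rose. The median log2 fold change of the 9 was 1.77, and 0.09 without replicate 4. Their summed level was 1163 and 550.2 CPM in PDX1 KO ISL1 OE against 94.59 to 134.7 CPM in PDX1 KO BFP, with PRSS2 and PRSS1 as the main part of it in replicate 2. CPA1, a defining acinar enzyme, had 1.78 and 5.30 CPM against 2.62, 1.97 and 1.62 CPM in PDX1 KO BFP and did not pass (edgeR adjusted p = 0.423). CTRB2, another acinar protease, stayed under 0.1 CPM in all 5 libraries, and PNLIP, AMY2A, REG1A, CTRB1 and RBPJL did not pass the filter on low counts.

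Liver and gut lists stand beside the same shares over all genes, 16.8% above and 18.6% below in both libraries, 9.07% higher and 5.34% lower. The liver list had 11 of 17 genes with both libraries above the controls and 0 with both below, and 13 rose while 0 fell. Their median log2 fold change was 2.15, with 0.74 in replicate 2 and 2.73 in replicate 4, and 4 were called higher without replicate 4. AMBP, the precursor of alpha-1-microglobulin, had 2410 and 4800 CPM in PDX1 KO ISL1 OE against 795, 794 and 818 CPM in PDX1 KO BFP, and 1570 to 1850 CPM in WT (log2 fold change 2.17 ± 0.28, edgeR adjusted p = 0.000264). VTN, the plasma protein vitronectin, had 365 and 942 CPM against 117.2, 107 and 108 CPM in PDX1 KO BFP. ALB, albumin, had 55.2 and 138 CPM against 18.7, 12.4 and 13.7 CPM in PDX1 KO BFP and 58.4 to 149 CPM in WT. The level of the whole list in WT, 18520 to 30120 CPM, lay above both PDX1 KO BFP, at 7533 to 8197 CPM, and replicate 2, at 13130 CPM, and below replicate 4, at 51900 CPM. In the intestine and stomach list, 15 of 17 genes passed the filter, 8 had both libraries above and 2 both below, and 9 rose while 0 fell (5 and 0 without replicate 4). CDH17, an intestinal cadherin, had 66.6 and 21 CPM in PDX1 KO ISL1 OE against 6.20, 4.22 and 6.28 CPM in PDX1 KO BFP. TFF3, the trefoil peptide of goblet cells, had 248 and 116.4 CPM against 45.4, 52.7 and 60.9 CPM. CDX2, which defines intestine, had 123.8 and 65.5 CPM in PDX1 KO ISL1 OE against 73.5, 57.6 and 79.5 CPM in PDX1 KO BFP (adjusted p = 0.526).

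**Figure D4:**
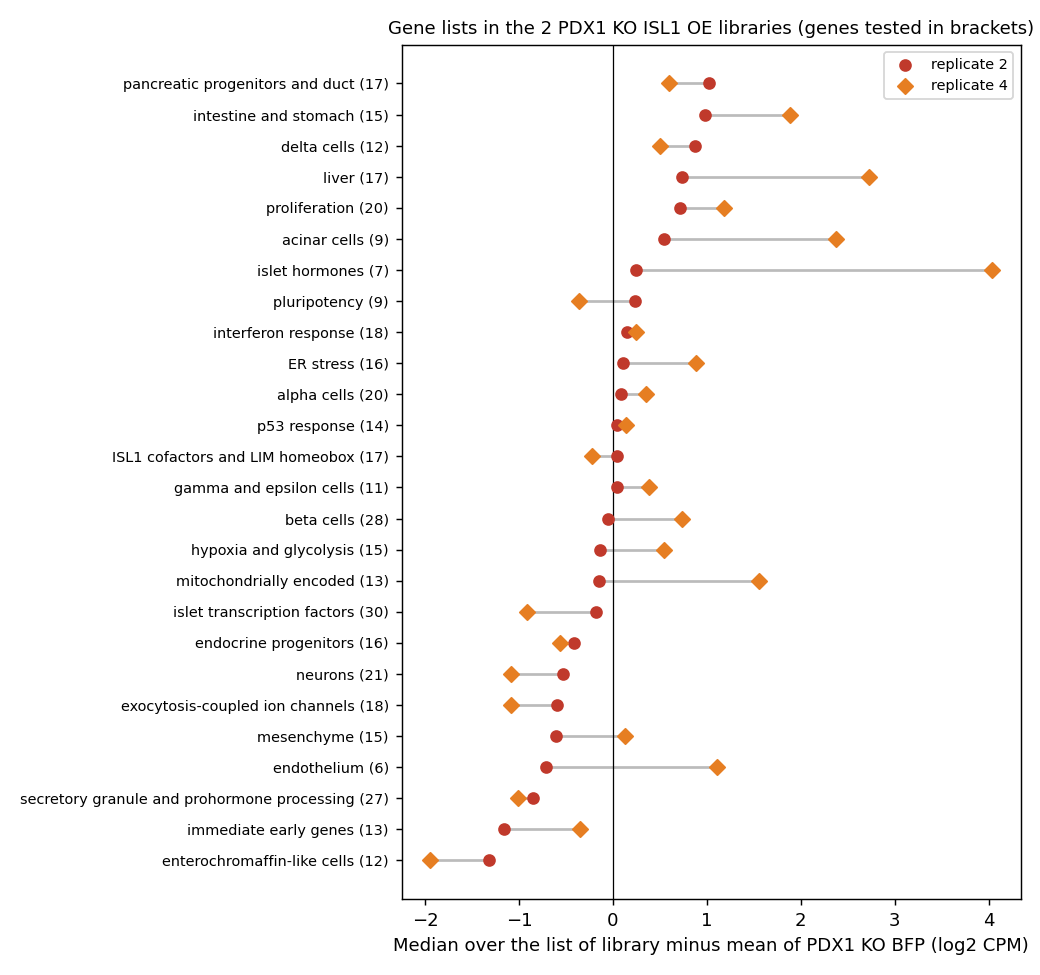
For each of the 26 gene lists, the median over its tested genes of PDX1 KO ISL1 OE replicate 2 (circles) and replicate 4 (diamonds) minus the mean of PDX1 KO BFP, in log2 CPM; bracketed numbers are genes tested. Granule genes sit at -0.85 and -1.01 and duct genes at 1.02 and 0.6, while hormones sit at 0.25 and 4.04.

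Cell cycle genes were moderately higher. Of 20 proliferation genes, 15 had both libraries above the controls and 9 rose while 0 fell, with medians of 0.72 in replicate 2 and 1.18 in replicate 4. UBE2C, which drives mitotic exit, had 23.6 and 125.5 CPM in PDX1 KO ISL1 OE against 15.2, 15.1 and 11.8 CPM in PDX1 KO BFP, and MKI67 had 21.6 and 24 CPM against 19, 10.5 and 16.3 CPM (adjusted p = 0.39). Without replicate 4, 0 of the 20 were called by edgeR and 6 had an unadjusted p under 0.05. Of 16 ER stress genes, 9 had both libraries above and 7 rose while 1 fell (3 and 0 without replicate 4). HERPUD1, a component of ER-associated degradation, had 432 and 535 CPM in PDX1 KO ISL1 OE against 208, 232 and 227 CPM in PDX1 KO BFP (log2 fold change 1.12 ± 0.21, edgeR adjusted p = 0.00331). TRIB3, a pseudokinase of the stress response, was the 1 that fell, with 29 and 37.2 CPM against 70.8, 83.1 and 72.5 CPM. Immediate early genes lay below in both libraries at 9 of 13. By edgeR 0 were called, with 1 at an unadjusted p under 0.05, and DESeq2 called 1 lower. NR4A3, an orphan nuclear receptor, had 1.66 and 3.30 CPM in PDX1 KO ISL1 OE against 11.2, 10 and 10.5 CPM in PDX1 KO BFP (edgeR adjusted p = 0.0876). In the remaining lists, 4 of 18 interferon genes, 4 of 14 p53 targets, 2 of 15 hypoxia and glycolysis genes, 2 of 9 pluripotency genes, 2 of 11 gamma and epsilon cell genes and 1 of 15 mesenchymal genes rose, and 2 gamma and epsilon cell genes fell. Over all genes tested, 9.07% rose and 5.34% fell, and 16.8% lay above and 18.6% below the controls in both libraries. Leaving out replicate 4 took the median log2 fold change of hypoxia and glycolysis genes from 0.57 to -0.11. That of gamma and epsilon cell genes went from 0.67 to 0.07 and that of mesenchymal genes from 0.21 to -1.19. For interferon genes it went from 0.34 to 0.18, for p53 targets from 0.09 to 0.08 and for pluripotency genes from 0.15 to 0.26. None of the 6 endothelial genes passed in either direction with both libraries by edgeR, limma-voom or DESeq2, with 0, 0 and 1 at an unadjusted p under 0.05. Of the 13 mitochondrially encoded genes edgeR called 0, with 9 at an unadjusted p under 0.05, while DESeq2 called 6 higher, DESeq2's size factors in edgeR 1, and edgeR without PAX6 KO ISL1 OE replicate 3 called 8. All 13 lay above the controls in replicate 4 and 2 did in replicate 2. The summed endothelial level was 2.388 and 7.446 CPM in PDX1 KO ISL1 OE and 1.653 to 6.403 CPM in PDX1 KO BFP, and PECAM1, a defining marker, was at 0.0478 and 0.0768 CPM against 0.0183, 0 and 0 CPM.

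Several of the largest fitted rises rested on replicate 4. GAST, the gastrin gene, had 12.3 and 1100 CPM in PDX1 KO ISL1 OE against 6.42, 7.41 and 5.02 CPM in PDX1 KO BFP, a log2 fold change of 6.47 ± 1.05 (edgeR adjusted p = 0.00128) that came to 1.0 without replicate 4 (adjusted p = 0.383). PCP4, a calmodulin regulator, had 3.53 and 74.5 CPM against 2.37, 1.73 and 1.26 CPM in PDX1 KO BFP. IL32, a cytokine, differed in that it was raised in both, with 10 and 123 CPM in PDX1 KO ISL1 OE against 2.81, 1.5 and 1.70 CPM in PDX1 KO BFP (log2 fold change 5.06 ± 0.68, edgeR adjusted p = 0.000316, and 0.00319 without replicate 4). At other genes the libraries lay on opposite sides of the controls. ANXA1, annexin A1, had 0.366 and 162 CPM in PDX1 KO ISL1 OE against 12.6, 3.64 and 3.60 CPM in PDX1 KO BFP. AREG, an epidermal growth factor receptor ligand, had 1.56 and 312 CPM against 14.9, 8.53 and 5.40 CPM. S100A14, a calcium-binding protein of epithelia, had 2.42 and 317 CPM, and the peptide hormone CCK 13.1 and 879 CPM, against 9.67, 3.32 and 3.46 CPM for S100A14 and 17.4, 26.3 and 17.9 CPM for CCK in PDX1 KO BFP. CXCL14, a chemokine, and ITLN2, a lectin, behaved alike, and all 6 had WT levels above replicate 2 and below replicate 4.

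The vector effect in the other genotypes compares libraries that did not choose these genes. Scaling, filter and pooled spread were shared with the PDX1 KO libraries, so the calls are not fully separate from that choice. Over the 464 genes with a gap of at least 1 above the PDX1 KO controls, the median log2 fold change of ISL1 OE over BFP was 0.36 for ISL1 KO, 0.62 for PAX6 KO and 0.09 for WT, against -0.01, 0.05 and -0.02 over all genes tested. The share with a positive value was 74.1% for ISL1 KO, 81% for PAX6 KO and 55.6% for WT, and 12, 27 and 4 of them were called higher in those genotypes (0.243%, 0.203% and 0.036% of all genes). Over the 348 genes below, the medians were -0.96 for ISL1 KO, -0.91 for PAX6 KO and -0.22 for WT, with 25, 29 and 0 called lower (0.18%, 0.212% and 0% of all genes). PAX6 KO ISL1 OE replicate 3 stood apart, correlating at 0.943 with PDX1 KO ISL1 OE replicate 4 where its group mates reached 0.899, and without it the PAX6 KO medians were 0.56 and -0.95. The calls in PAX6 KO were then 10 higher among the genes above and 24 lower among the genes below, with 18 higher and 45 lower over all genes. HHEX rose in ISL1 KO by 2.64 ± 0.29 and in PAX6 KO by 2.13 ± 0.29 on the log2 scale (edgeR adjusted p = 0.000406 and 0.00342), and in WT its value was 1.81 ± 0.35 (adjusted p = 0.107). RARRES2 was called higher in all 4 genotypes, with 1.79 ± 0.33 for ISL1 KO, 2.13 ± 0.33 for PAX6 KO and 2.74 ± 0.42 for WT (edgeR adjusted p = 0.0193, 0.00719 and 0.0191). CBLN1 fell by 1.72 ± 0.28 in ISL1 KO and by 1.92 ± 0.29 in PAX6 KO (edgeR adjusted p = 0.00884 and 0.00495), and its value in WT was -1.15 ± 0.34 (adjusted p = 0.721). SYT13 fell by 1.36 ± 0.19 and by 1.21 ± 0.19 in ISL1 KO and PAX6 KO (edgeR adjusted p = 0.00314 and 0.00719), with -0.05 ± 0.23 in WT.

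**Figure D5:**
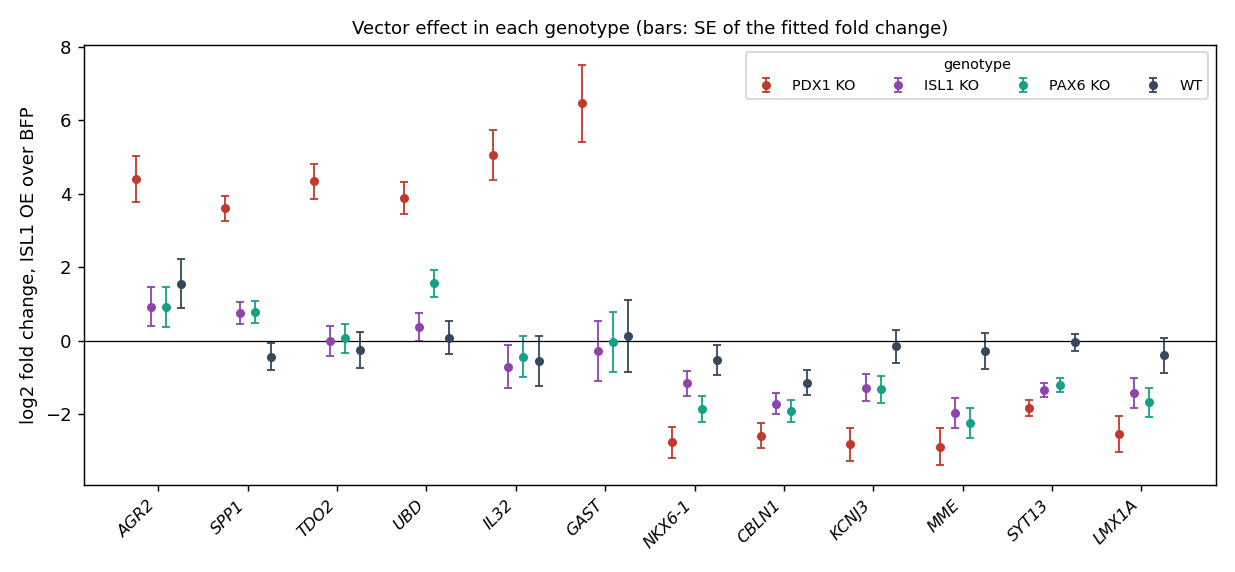
Fitted log2 fold change of ISL1 OE over BFP for 12 genes in PDX1 KO, ISL1 KO, PAX6 KO and WT; points are estimates and bars their SE. NKX6-1, CBLN1, MME and LMX1A have negative values in all 3 knockouts, whereas TDO2, IL32 and GAST are far above 0 in PDX1 KO alone, and at GAST through replicate 4.

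The difference between vector effects was tested gene by gene as an interaction. The signed log2 effect in PDX1 KO minus that in WT was positive at 263 genes (1.18%) and negative at 40 (0.18%). Against ISL1 KO it was positive at 0.5% of genes and negative at 5 (0.0225%). For PAX6 KO the counts were 72 (0.324%) and 1 (0.0045%). A negative difference can stand for a deeper fall in PDX1 KO as well as for a smaller rise. All 3 contrasts share the PDX1 KO libraries. TDO2 differed from all 3 genotypes, by 4.61 from WT, 4.35 from ISL1 KO and 4.28 from PAX6 KO on the log2 scale (edgeR adjusted p = 0.00434, 0.00408 and 0.00843). MS4A8 exceeded WT by 3.88, ISL1 KO by 4.04 and PAX6 KO by 3.28 (edgeR adjusted p = 0.0018, 0.000804 and 0.00843), and SPP1 exceeded them by 4.05, 2.88 and 2.83 (adjusted p = 0.00113, 0.00812 and 0.0139). At these 3 genes the controls with PDX1 KO were low and WT was high under both vectors, TDO2 for example with 114 to 188 CPM in WT. SYT13 and NETO1 fell further in PDX1 KO than in WT, by 1.80 and 2.38 (edgeR adjusted p = 0.00947 and 0.0291), and a difference from ISL1 KO or PAX6 KO did not pass for either (adjusted p from 0.341 to 0.525). For AGR2 no interaction passed (adjusted p = 0.121, 0.0621 and 0.086 against WT, ISL1 KO and PAX6 KO), and HHEX differed from ISL1 KO by -0.03 (adjusted p = 0.983). Without replicate 4 the counts of differences were 135 against WT, 72 against ISL1 KO and 56 against PAX6 KO, and the lowest counts, without 1 PDX1 KO BFP library, were 123, 44 and 11.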

How the data were processed

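RNA was isolated with a Zymo Quick-RNA kit and libraries were made with SMART-Seq v4 and KAPA EvoPrep, per the labels' protocols, which gives unstranded reads with no molecular identifiers. Reads were aligned with STAR 1.6.1 to GRCh38, per the submitters' processing notes, and the sources used here do not name the counting program. The authors deposited estimated counts per gene and per transcript and TPM values, 1 column per sequencing lane. The 4 lanes of each library (correlation of at least 0.9973) were summed. Columns of 3 libraries that the labels do not describe (12 columns) were not used, and 1 column that occurs in duplicate with identical values was used once. Lanes 5 to 8 held PDX1 KO BFP replicate 3, and lanes 1 to 4 the other 4 PDX1 KO libraries.

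The deposited estimated counts were rounded to whole numbers, filtered with filterByExpr (22207 genes kept) and scaled by TMM. All 21 libraries entered 1 edgeR quasi-likelihood fit with a coefficient for each of the 8 groups (common dispersion 0.114), with p-values adjusted by Benjamini-Hochberg over all genes and a threshold of 0.05. Levels are CPM after TMM, and log2 CPM used a prior count of 2. The scripts were tested on simulated data. Versions were R 4.3.3, edgeR 4.0.16, limma 3.58.1 and DESeq2 1.42.0. A table of gene symbols named 38568 of 38592 gene IDs, and GENCODE 29 gave coordinates for 34390.

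Named genes are the 15 with the largest gap in each direction at a mean log2 CPM of at least 2, the 8 in each direction also beyond WT, up to 8 called genes per direction with the largest change, the 6 with the largest opposite differences, up to 4 per list, up to 5 per direction of each difference between vector effects, and a fixed panel of islet genes; genes outside the rule were chosen after their values were seen. The members and lists were chosen with earlier results of these data known. Alternatives were other scalings, no filter, DESeq2, limma-voom with quality weights, the PDX1 KO libraries alone, the deposited TPM and leaving out single libraries. Total counts limit the precision, and p-values cover the spread between libraries.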

Additional observations from a re-analysis of the deposited data

Results flagged for a closer look

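The vector effect in PDX1 KO differed from that in another genotype at the genes below, each by an interaction in edgeR's quasi-likelihood fit, given as the effect in PDX1 KO minus the other on the log2 scale ± SE. Of the 26 such differences, 12, 9 and 8 stayed called without PDX1 KO BFP replicate 1, 2 and 3 in turn. With 1 PDX1 KO ISL1 OE library left out, the other stands alone for its group. A count of calls kept in that setting does not show how firm the differences are.

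GAST, gastrin, differed by 6.35 ± 1.43 from WT, 6.75 ± 1.28 from ISL1 KO and 6.51 ± 1.27 from PAX6 KO (edgeR adjusted p = 0.0364, 0.023 and 0.0416). FABP1, a fatty acid binding protein of liver and intestine, differed by 5.99 ± 1.12 from WT, 4.87 ± 0.98 from ISL1 KO and 5.57 ± 0.99 from PAX6 KO (edgeR adjusted p = 0.0145, 0.0337 and 0.0261). Neither kept a call without replicate 4, where GAST came to 0.87, 1.27 and 1.02 and FABP1 to 2.36, 1.24 and 1.93. IL32, a cytokine, differed by 5.61 ± 0.97 from WT, 5.77 ± 0.88 from ISL1 KO and 5.50 ± 0.87 from PAX6 KO (edgeR adjusted p = 0.00932, 0.00709 and 0.0139). IL32 kept all 3 without replicate 4, at 2.90, 3.06 and 2.78. INS, insulin, differed from ISL1 KO by 6.27 ± 1.34 (edgeR adjusted p = 0.0457). INS came to 0.17 without replicate 4. TDO2, tryptophan dioxygenase, differed from PAX6 KO by 4.28 ± 0.61 (edgeR adjusted p = 0.00843). TDO2 stayed at 3.0 without replicate 4.

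SULT2A1, a steroid sulfotransferase, differed from WT by 5.47 ± 1.32 (edgeR adjusted p = 0.0492). APOM, an apolipoprotein, differed from WT by 5.28 ± 1.06 (edgeR adjusted p = 0.0194). CA4, a carbonic anhydrase, differed from ISL1 KO by 4.69 ± 1.01 (edgeR adjusted p = 0.0477). ZG16, a secretory granule lectin, differed from PAX6 KO by 4.48 ± 0.88 (edgeR adjusted p = 0.0416). None of these 4 was called without replicate 4, at 0.73, 1.61, 0.87 and 2.14.

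KCNJ3, a potassium channel, differed from WT by -2.67 ± 0.62 (edgeR adjusted p = 0.0416). ADRB1, an adrenergic receptor, differed from WT by -3.29 ± 0.69 (edgeR adjusted p = 0.0253). NELL2 differed from WT by -3.21 ± 0.71 (edgeR adjusted p = 0.0343). PTGER2, a prostaglandin E2 receptor, differed from WT by -3.21 ± 0.61 (edgeR adjusted p = 0.0155). CBLN4, a cerebellin, differed from WT by -2.96 ± 0.53 (edgeR adjusted p = 0.0111). SERTM2 differed from ISL1 KO by -2.54 ± 0.54 (edgeR adjusted p = 0.0454). SLC24A4, a sodium, potassium and calcium exchanger, differed from ISL1 KO by -4.58 ± 0.59 (edgeR adjusted p = 0.00194). The vector effect on SLC24A4 within ISL1 KO was 4.5 ± 0.43 (edgeR adjusted p = 8.39e-05). KLK12, a kallikrein protease, differed by -3.14 ± 0.53 from ISL1 KO and -2.76 ± 0.52 from PAX6 KO (edgeR adjusted p = 0.0109 and 0.0391). CSGALNACT1 differed from ISL1 KO by -2.25 ± 0.44 (edgeR adjusted p = 0.0289). LIN28A, an RNA-binding protein of stem cells, differed from ISL1 KO by -2.01 ± 0.39 (edgeR adjusted p = 0.0286). Without replicate 4, ADRB1, PTGER2, SLC24A4 and the ISL1 KO difference of KLK12 stayed called, at -2.50, -2.54, -4.14 and -2.59.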

How the results depend on the processing

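The count of 3200 genes called was 3567 with DESeq2's size factors, 2620 without the filter, 2110 with library size alone, 5050 with DESeq2, 10 with limma-voom, 0 with the PDX1 KO libraries alone and 5642 without PAX6 KO ISL1 OE replicate 3. Leaving out 1 PDX1 KO library gave 718 to 10860 calls. Differences of the vector effect were called at 303 genes against WT, with 171 by library size, 1236 by DESeq2, 30 by limma-voom, 789 without PAX6 KO ISL1 OE replicate 3 and 123 to 8269 without 1 PDX1 KO library. Against ISL1 KO the counts were 62, 570, 0 (810 at an unadjusted p under 0.05), 248 and 44 to 8251 in the same order, and against PAX6 KO the 73 became 26, 457, 0 (540 unadjusted), 68 and 11 to 4525. Genes outside the control range numbered 7864, and 8709 to 19169 without 1 library. That count cannot fall when a library is left out, so its rise says nothing on how firm it is. Of the 3200 calls, 552 (17.2%) kept call and direction without replicate 4.

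Settings chosen after seeing the data used 1 PDX1 KO ISL1 OE library and left out PAX6 KO ISL1 OE replicate 3. Library 2 alone called 2570 genes, with 753, 300 and 196 differences against WT, ISL1 KO and PAX6 KO; library 4 alone called 13227, with 11674, 11686 and 11411. With library 2 alone, log2 fold changes turned sign for ISL1 (-0.11), PDX1 (0.35), PAX6 (-0.40), GCG (-0.50), PPY (-0.08), S100A14 (-1.15), CCK (-0.63), ANXA1 (-4.14), AREG (-2.59), CXCL14 (-3.14), ITLN2 (-1.38), SULT2A1 (-0.79), APOM (-0.24) and SLC24A4 (0.36). Leaving out 1 PDX1 KO library at a time gave ranges of -0.10 to 1.07 for ISL1, -0.41 to 0.36 for PDX1, -0.39 to 0.85 for PAX6, -0.49 to 2.68 for GCG, -0.07 to 2.26 for PPY, -1.15 to 5.93 for S100A14, -0.61 to 5.49 for CCK, -4.13 to 4.70 for ANXA1, -2.59 to 5.10 for AREG, -3.14 to 3.19 for CXCL14, -1.37 to 4.77 for ITLN2, -0.78 to 5.00 for SULT2A1, -0.23 to 4.45 for APOM and -0.61 to 0.37 for SLC24A4, turned by replicate 4 in each case. NEUROD1 (-1.02 to 0.29) and THY1 (-1.57 to 0.06) turned without replicate 2 and, at 0.29 and 0.06, with library 4 alone. PDX1 turned to 0.02 with DESeq2's size factors and with DESeq2, 0.0 with the PDX1 KO libraries alone and 0.05 without PDX1 KO BFP replicate 2. Under limma-voom ANXA1 (-0.17) and CXCL14 (-0.28) turned, and SLC24A4 (0.03) without PDX1 KO BFP replicate 1. The cause was not tested. The median log2 fold change of all genes was 0.07, against 0.13 with DESeq2's size factors and -0.10 with library size. No paired analysis was possible because the 2 groups compared share only 1 replicate number. A block over all 21 libraries was not run, and no other library has the number of PDX1 KO ISL1 OE replicate 4.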

Other observations

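The following 3 gene groups were picked after their values were seen and are described with no test. Of all genes tested, 16.8% had both libraries above the controls and 18.6% both below. Of 7 metallothionein genes tested, which encode metal-binding proteins, 6 had both PDX1 KO ISL1 OE libraries above the controls. Their summed level was 19.09 and 45.49 CPM in PDX1 KO ISL1 OE against 3.819 to 7.067 CPM in PDX1 KO BFP, and the split among these near-identical copies is uncertain. Of 18 NF-kB target genes, 9 had both libraries above and 0 both below, with a summed 366.3 and 848.7 CPM in PDX1 KO ISL1 OE against 246.6 to 292.6 CPM in PDX1 KO BFP. BIRC3, an inhibitor of cell death, had 5.25 and 7.37 CPM in PDX1 KO ISL1 OE against 0.716, 0.551 and 0.68 CPM in PDX1 KO BFP, and LTB, lymphotoxin beta, had 5.08 and 17 CPM against 0.642, 0.283 and 0.60 CPM.

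The motile cilium genes parted the 2 libraries. Of 27, replicate 2 lay above the controls at 24 and below at 1 (34.4% and 35.2% of all genes). Replicate 4 lay above at 8 and below at 17 (42.4% and 44% of all genes). FOXJ1, the factor that drives motile cilia, had 285 and 45.6 CPM in PDX1 KO ISL1 OE against 126.3, 129 and 167 CPM in PDX1 KO BFP. IGF2, also picked after its values were seen, is a growth factor gene beside INS whose reads can overlap a readthrough transcript. It had 637 and 672 CPM in PDX1 KO ISL1 OE, 163, 124.5 and 127 CPM in PDX1 KO BFP, and 251 to 371 CPM in WT.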
